A study of Mus musculus with 36 samples.

Results

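Whole-brain transcriptomes of mice with experimental autoimmune encephalomyelitis (EAE) that received farnesol were compared with those of EAE mice left untreated. The comparison was chosen by the treatment in the sample labels and holds 10 farnesol and 9 untreated libraries, 19 of the 36 in the series. All mice were wild-type C57BL/6. In both groups EAE was induced with the myelin peptide MOG35-55 in complete Freund's adjuvant together with pertussis toxin, and brains were taken at day 19, the peak of disease. Farnesol was dissolved in corn oil and gavaged daily at 100 mg per kg, whereas untreated mice received neither oil nor gavage, so farnesol, oil and gavage cannot be told apart here. The series also holds 9 EAE libraries given corn oil by gavage and 8 libraries of naive mice. Vehicle values are set beside those of the comparison, and naive values are given for some genes only. The labels name replicates within each group but do not describe how the animals were housed or processed. P-values of genes therefore rest only on the spread between libraries within groups, estimated over all 36 libraries of the series. EAE is an active immunization model, and whole brain mixes neurons, glia, vessels and infiltrating cells: fewer cells of a type and less RNA per cell cannot be told apart.

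Farnesol is an alcohol of the mevalonate pathway, formed from farnesyl pyrophosphate, which feeds sterol synthesis and protein prenylation. Immediate early genes are transcription factors and effectors that neurons switch on within minutes of activity or growth factor signalling. Chaperones of the endoplasmic reticulum (ER) fold secreted and membrane proteins and are induced when unfolded proteins build up, while cytosolic heat shock proteins answer to heat and other proteotoxic stress.

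The farnesol libraries differed from the untreated ones in the level of a ribosomal RNA gene, 1 of 3 measures of library composition compared. Total counts ranged from 15.4 to 23.6 M with farnesol and from 14.7 to 24.2 M without treatment, with means of 18.8 and 20.5 M (exact permutation test over libraries, two-sided, adjusted p = 0.218 over the 3 measures). Mitochondrial transcripts made up 4.62% of counts on average with farnesol and 4.43% without treatment (same test, adjusted p = 0.36). The ribosomal RNA gene CT010467.1 was at 1309 to 2553 CPM (counts scaled to library size) in the untreated libraries. With farnesol it was at 1613 to 2430 CPM in replicates 1 to 3 and at 5091 to 17690 CPM in replicates 4 to 10 (exact permutation test for all 10 against 9, adjusted p = 0.00779). The 3 farnesol libraries below this gap are called the low-rRNA libraries and the 7 above it the high-rRNA libraries; all 9 untreated and all 9 vehicle libraries were low and all 8 naive libraries were high. No label names what separates them. The gland transcript Sbp was at 3.86 to 12.4 CPM in untreated replicates 1 to 5, at 0.0414 to 0.1 CPM in untreated replicates 6 to 9 and at 0 to 0.0524 CPM with farnesol. Vehicle replicates 3 to 5 held 5.09 to 7.71 CPM of Sbp, and the other vehicle libraries at most 0.15 CPM. The related Sbpl was at 1.45 to 3.08 CPM in untreated replicates 1 to 5, at 0 to 0.0414 CPM in untreated replicates 6 to 9 and at 0 CPM with farnesol. Sbp and Sbpl are among the lower genes counted and are given as levels only. The summed CPM of 17 cerebellar genes ranged from 971.5 to 4016 in untreated and from 928.5 to 4058 in farnesol libraries, with untreated replicate 3 and farnesol replicate 2 far below the rest. Pituitary growth hormone, Gh, reached 872 CPM in an untreated library and at most 6.85 CPM with farnesol. The defining markers of neurons, astrocytes, oligodendrocytes, microglia and endothelium (Snap25, Slc1a2, Mbp, Csf1r and Flt1 among them) were detected in all 19 libraries, and the gland genes Smr3a and Prol1 were at or near 0.

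Of 18438 genes tested, 345 (1.87%) passed an adjusted p of 0.05, 177 higher (0.96%) and 168 lower (0.911%) with farnesol. With upper-quartile scaling the split was 219 higher and 128 lower. The count fell to 156 in a fit of the 19 libraries alone, to 174 without the 5 untreated libraries with Sbp and to 202 without untreated replicate 8. The higher and the lower genes differed in kind. All but 1 of the 168 lower genes were protein coding, and their changes were small, with a median log2 change of -0.27 and 6 over 2-fold at a median of 63.6 CPM. Only 63 of the 177 higher genes were protein coding, and the 177 had a median change of 0.88 on the log2 scale at a median of 1.87 CPM. The median of all genes tested was 0.0023. The CPM ranges of the groups did not overlap for 19 genes (0.103% of those tested). Lower without overlap were 10 genes (0.0542%), among them Hspa5, Bhlhe40, Tmem50b, Irs2, Dusp6, Egr4, Plat, Banp and Dusp4, and the 9 higher (0.0488%) included Ciart, Mecom, Pms2, Lncpint and mt-Atp6. Tissue-type plasminogen activator, Plat, had the smallest p among all genes.

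ER chaperones and folding enzymes were lower with farnesol. Of 26 listed genes of ER chaperones and the unfolded protein response, 12 fell, none rose, and the median change was -0.16. The lower share over all genes was 0.911%. This list and the others were chosen with earlier results of these data known, so such counts describe the data and are not a test. Hspa5 encodes BiP, the main ER chaperone, and lies at chr2:34771970-34777547 (GRCm38). It was at 339 to 428 CPM in the untreated libraries (median 380) and at 220 to 330 CPM with farnesol (median 265). The groups did not overlap, and the change was -0.50 ± 0.07 (log2 change ± SE, adjusted p = 0.000141). Creld2, an ER protein induced by unfolded proteins (chr15:88819646-88826683), was at 17.6 to 21.2 CPM (median 19.8) untreated and 10.8 to 18.4 CPM (median 14) with farnesol, a fall of -0.48 ± 0.08 (adjusted p = 0.000941) with overlapping ranges. Manf, a secreted ER-stress factor, fell by 0.36 on the log2 scale (adjusted p = 0.000385), from 44.1 to 53.8 CPM in the untreated libraries to 32.4 to 45.2 CPM. Sdf2l1, a component of ER chaperone complexes, had the largest fall of the list, -0.64 ± 0.12, from a mean of 17.7 ± 2.57 CPM (SD, n = 9) to 11.3 ± 2.55 CPM (SD, n = 10). The disulfide isomerases Pdia6 (-0.33) and Pdia4 (-0.37), the transcription factor Xbp1 (-0.38), calreticulin (Calr, -0.29) and Hsp90b1 (-0.19) also fell. The other 3 that passed were Pdia3, Hyou1 and Dnajb11.

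Of the called ER genes, those with an ER stress response element around the start are shown with the sequence that holds it. The element is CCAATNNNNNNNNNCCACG, searched on both strands in 250 bases before to 50 bases after each RefSeq start (GRCm38.p6), and it is the site described for ATF6 with NF-Y. It was in 5 of the 10 called genes of the list that have a window and in 8 of the 23 of the whole list, against 37 of all 27025 promoters (0.137%). The stretches run 5′ to 3′ on the gene's strand, end at the first base annotated as exon, and carry the element in capitals. For Hspa5 only the element itself is shown (chr2:34772025-34772043, plus strand); it lies before the RefSeq start but inside the first exon of the gene as GENCODE draws it. The others are Creld2 (chr15:88819396-88819645, plus strand), Pdia6 (chr12:17266339-17266544, plus strand), Hsp90b1 (chr10:86705510-86705694, minus strand), which holds it on both strands, and Calr (chr8:84846935-84847181, minus strand), where capitals also mark an E-box, CACGTG, upstream of the element.
Hspa5: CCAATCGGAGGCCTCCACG
Creld2: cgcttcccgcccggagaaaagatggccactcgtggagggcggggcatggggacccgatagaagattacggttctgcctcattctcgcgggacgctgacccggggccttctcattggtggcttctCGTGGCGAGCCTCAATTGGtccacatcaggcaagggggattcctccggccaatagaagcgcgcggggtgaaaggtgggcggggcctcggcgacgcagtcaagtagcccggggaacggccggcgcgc
Pdia6: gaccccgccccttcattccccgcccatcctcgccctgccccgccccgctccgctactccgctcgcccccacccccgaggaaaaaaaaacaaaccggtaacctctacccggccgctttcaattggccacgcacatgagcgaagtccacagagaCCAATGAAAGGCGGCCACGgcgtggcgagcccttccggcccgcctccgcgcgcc
Hsp90b1: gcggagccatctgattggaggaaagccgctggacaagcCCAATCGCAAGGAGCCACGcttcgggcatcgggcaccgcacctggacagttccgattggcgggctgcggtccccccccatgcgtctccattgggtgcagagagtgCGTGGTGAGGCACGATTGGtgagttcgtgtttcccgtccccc
Calr: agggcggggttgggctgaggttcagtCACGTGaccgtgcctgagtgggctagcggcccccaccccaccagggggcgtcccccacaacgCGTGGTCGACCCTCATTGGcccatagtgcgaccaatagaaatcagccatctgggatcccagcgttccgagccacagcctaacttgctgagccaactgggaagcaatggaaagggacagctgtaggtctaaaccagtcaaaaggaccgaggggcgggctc
A match is a description of letters, and binding was not measured.

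Heat shock proteins and cochaperones fell in 9 of 25 listed genes, with none higher and a median of -0.14. The lower share over all genes was 0.911%. The Hsp40 family cochaperone Dnajb1 (chr8:83608193-83612653) was at 52.9 to 70.8 CPM untreated (median 60) and at 42.2 to 54.7 CPM with farnesol (median 48.6), so that the ranges overlapped only at the edge. Its change was -0.34 ± 0.05 (adjusted p = 0.000183). Among the other called genes, Hspa1b fell by 0.57 and Hsph1 by 0.27 on the log2 scale, while the abundant Hspa8 fell by 0.22 from a mean of 1838 to 1575 CPM. Hspa1b has a near-identical neighbour, Hspa1a, so that its counts are uncertain; Hspa1a was at -0.16 (adjusted p = 0.524). The heat shock element GAANNTTCNNGAA was found in 1 of the 7 called genes with a promoter window, in 4 of 20 of the whole list and in 0.662% of all promoters.

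Immediate early genes had the most negative median of the lists with a called gene, -0.46, and 15 of 35 fell while none rose. Of all genes tested 0.911% fell. Arc encodes a synaptic protein induced by neuronal activity (chr15:74669083-74672570). Its level was 145 to 288 CPM untreated (mean 200 ± 54.6, SD, n = 9) and 71.8 to 154 CPM with farnesol (mean 108 ± 25.6, SD, n = 10), a change of -0.89 ± 0.20 (adjusted p = 0.0111). Fos, a subunit of AP-1 (chr12:85473890-85477273), changed by -0.86 ± 0.23 (adjusted p = 0.0369). Untreated replicates 1 to 5, the libraries with Sbp, were low in both genes: Arc was at 145 to 193 CPM there and at 211 to 288 CPM in replicates 6 to 9, and Fos was at 21.5 to 27.5 CPM against 42.1 to 67 CPM. Farnesol libraries had 12.6 to 33 CPM of Fos and so overlapped the former only. The zinc finger factor Egr1 was at 201 to 339 CPM untreated and at 149 to 208 CPM with farnesol, a change of -0.61 ± 0.13 (adjusted p = 0.00836). Egr2 fell by 1.18, Egr4 by 0.73, Nr4a3 by 0.75 and Fosb by 0.74 on the log2 scale. Nr4a1 (-0.63, adjusted p = 0.0602), Junb (-0.51, adjusted p = 0.0776), Npas4 (-0.22, adjusted p = 0.595) and Bdnf (-0.22, adjusted p = 0.236) did not pass. The cyclic AMP response element TGACGTCA was in 0 of the 9 called genes of the list with a promoter window and in 2.03% of all promoters. Only these 9 of the 15 called genes have a window. In the whole list the element was in 3 of 27 genes. Among all called lower genes it was in 9 of 136 (6.62%), against 3.25% of the genes tested.

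Dusp4 and Dusp6, which are members of the immediate early list, encode phosphatases that act on ERK. Dusp4 (chr8:34807297-34819894) was at 14.9 to 18.6 CPM untreated and 8.1 to 13.4 CPM with farnesol, with no overlap, and fell by 0.61 (adjusted p = 0.000785). Dusp6 was at 53.2 to 71.8 CPM against 40.1 to 52.1 CPM, again without overlap, and fell by 0.43. Spry4 (-0.48), Spred2 (-0.27) and the ERK-responsive factor Etv5 (-0.32) were also lower; these 3 were chosen after their values were seen. The prohormone Vgf (-0.42), the prohormone convertase Pcsk1 (-0.31) and the pentraxin Nptx1 (-0.25), neuronal secreted or processing proteins, fell too and were likewise chosen after their values were seen. Plat (chr8:22757727-22782844) was at 36.4 to 47.5 CPM untreated and 29.3 to 36 CPM with farnesol without overlap, and changed by -0.42 ± 0.05 (adjusted p = 1.2e-05). Irs2, an insulin receptor substrate, was at 96 to 123 CPM against 74.9 to 93.7 CPM, a change of -0.34 (adjusted p = 0.00414). The cell cycle inhibitor Cdkn1a fell by 0.83 and was the only 1 of 21 glucocorticoid response genes to pass. The median of that list was -0.19, and 18 of its 21 changes were negative. Fkbp5 was at -0.02 (adjusted p = 0.974) and Tsc22d3 at -0.16 (adjusted p = 0.498), both chosen after their values were seen. Depp1, Tmem252 and Fabp7 fell by 1.02, 1.01 and 0.59.

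**Figure D1:**
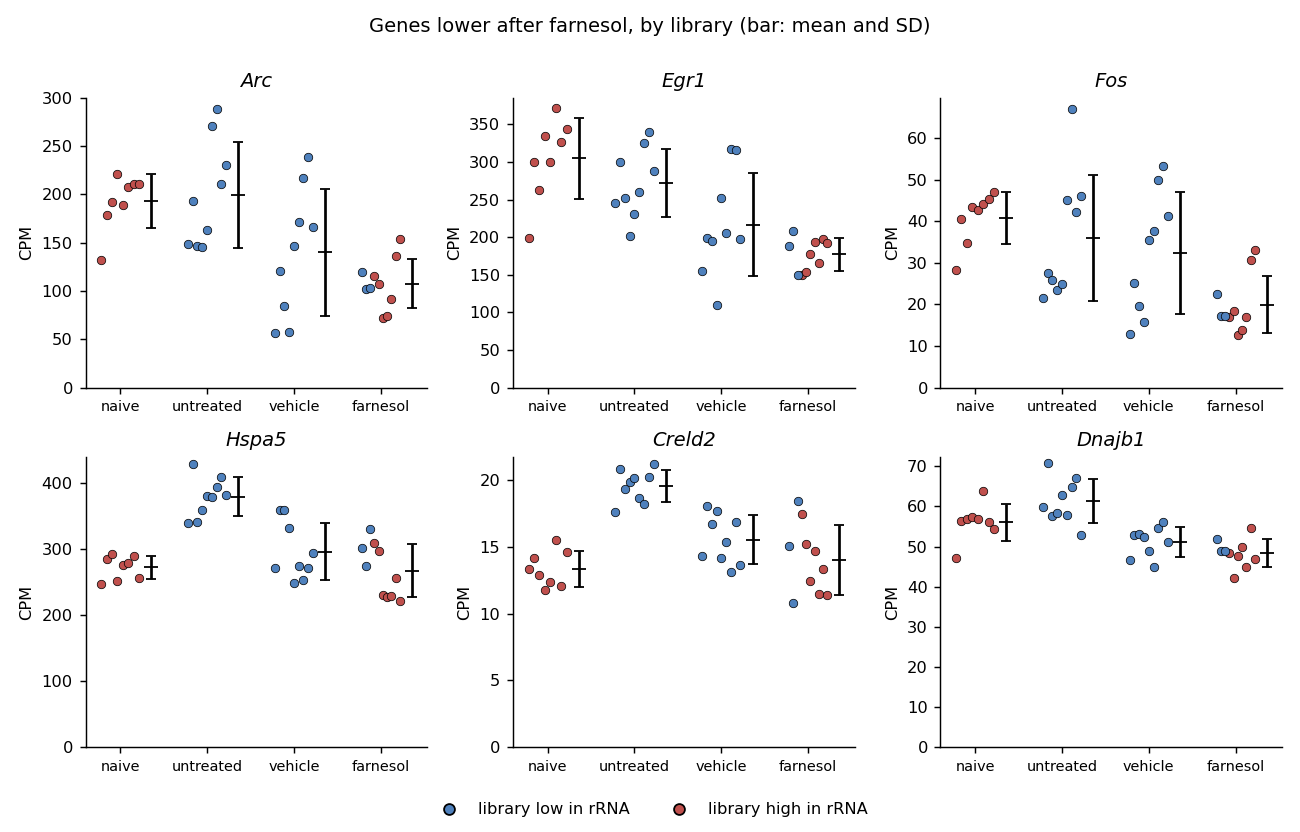
Levels in CPM of 6 genes lower with farnesol, by library, in naive, untreated EAE, vehicle EAE and farnesol EAE mice; points are libraries in replicate order, coloured by level of the rRNA gene CT010467.1, and bars are mean and SD. For Hspa5 the farnesol libraries lie at 220 to 330 CPM, all below the untreated range of 339 to 428 CPM.

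The circadian clock moved in both directions. Of 22 listed genes 3 rose and 3 fell, and the median was 0.0077. Over all genes 0.96% rose and 0.911% fell. The output factor Dbp (chr7:45705088-45710203) rose by 0.49 ± 0.09 (adjusted p = 0.00161), from 48.7 to 78 CPM untreated to 71.4 to 99.4 CPM with farnesol. Ciart, a repressor of the clock (chr3:95878503-95882251), was at 9.43 to 11.3 CPM untreated and 12 to 17.8 CPM with farnesol without overlap, a change of 0.51 ± 0.11 (adjusted p = 0.00665). Per3, a period gene, rose by 0.30 from a range of 39.9 to 56.5 CPM. Its farnesol libraries were at 62.2 to 63.9 CPM in the low-rRNA set and at 46.5 to 56.4 CPM in the high-rRNA set, the latter within the untreated range. The factors Nfil3 (-0.48) and Bhlhe40 (-0.32) and the core activator Arntl (-0.25) fell. Nfil3, which binds the same D-box as Dbp as a repressor, was at 10.5 to 16.6 CPM untreated and 7.83 to 11.2 CPM with farnesol. The vehicle libraries held 9.91 to 19.9 CPM of Ciart, and 7 of the 9 lay above the untreated range. Time of day of sampling is not in the labels.

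Ciart and Per3 carry the elements of clock output in their promoters, and their windows are shown for that reason. Capitals in Ciart (chr3:95882252-95882478, minus strand) mark the E-box CACGTG, which occurs 3 times, and capitals in Per3 (chr4:151044666-151044915, minus strand) mark the D-box TTATGTAA, which occurs 2 times. Of all promoters 8.09% hold the E-box and 1.11% the D-box on either strand, and of the genes tested 10.8% and 0.804%. Each motif is in 1 of the 5 called clock genes with a window. In the whole clock list the E-box is in 5 of 18 genes with a window and the D-box in 1 of 18.
Ciart: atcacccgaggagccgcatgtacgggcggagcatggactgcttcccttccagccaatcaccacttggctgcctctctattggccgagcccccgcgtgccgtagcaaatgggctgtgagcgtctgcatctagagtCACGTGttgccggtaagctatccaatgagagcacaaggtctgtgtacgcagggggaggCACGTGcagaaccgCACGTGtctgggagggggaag
Per3: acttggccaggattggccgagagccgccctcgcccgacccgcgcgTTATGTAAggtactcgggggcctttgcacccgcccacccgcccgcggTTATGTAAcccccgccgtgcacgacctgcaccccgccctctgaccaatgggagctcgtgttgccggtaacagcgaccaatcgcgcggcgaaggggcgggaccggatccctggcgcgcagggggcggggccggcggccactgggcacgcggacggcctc

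Higher RNAs were mostly noncoding, and many lie within introns. Of 445 tested noncoding genes inside a same-strand intron of a coding gene, 46 rose (10.3%), against 0.411% of 15322 protein-coding genes. The levels were low: the 114 higher genes of types other than protein coding had a median of 0.897 CPM. With farnesol 52 of these 114 had a mean below 1 CPM. The count filter needs reads in only part of the libraries. Loci this faint could therefore enter the tested set through the libraries where they are high, which favours rises. The share of 10.3% depends on this filter and is not a test. With a minimum count of 50, 105 genes of any type rose and 124 fell, against 177 and 168. Loci of the type TEC, which await experimental evidence, rose in 54 of 595 cases and long intergenic noncoding RNAs in 25 of 715. The use of strand in counting is not given in the sources used here, so reads from intronic or antisense loci and from the host's unspliced transcript cannot be told apart. Rn7sk, the small RNA that holds the elongation factor P-TEFb inactive (chr9:78175303-78175633), was at 1.15 to 3.81 CPM untreated. With farnesol it was at 1.9 to 4.94 CPM in the low-rRNA and at 8.27 to 22.5 CPM in the high-rRNA libraries. The naive libraries, also high in rRNA, held 6.34 to 10.6 CPM of Rn7sk. Over all 10 libraries the change was 2.09 ± 0.28 (adjusted p = 3.8e-05). Hexim1, a protein of the same complex, fell by 0.16 (adjusted p = 0.0302) and was chosen after its values were seen.

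Among named noncoding RNAs, Malat1, Lncpint and Kcnq1ot1 also rose. Malat1, a nuclear-speckle RNA (chr19:5795690-5802672), was at 486 to 1140 CPM untreated, at 1043 to 1205 CPM in the low-rRNA and at 1237 to 2529 CPM in the high-rRNA libraries, a change of 1.01 ± 0.15 (adjusted p = 0.000169). Lncpint (chr6:31082565-31220488) was at 0.899 to 1.89 CPM untreated and 1.98 to 6.05 CPM with farnesol, without overlap, a change of 1.42 ± 0.19. Kcnq1ot1, the antisense RNA of the imprinted Kcnq1 locus (chr7:143203458-143296549), rose by 0.63 ± 0.10 (adjusted p = 0.000262) from a median level of 23 CPM (18.4 to 32.1) to one of 35 CPM, and the low-rRNA libraries (33.8 to 37.8 CPM) were as high as the high-rRNA ones (30.4 to 47.3 CPM). Malat1 and Kcnq1ot1 were the only 2 called of 17 tested nuclear long noncoding RNAs, whose median was 0.16, while 0.96% of all genes rose. Neat1 was at -0.03 (adjusted p = 0.965). Lars2, unlike these RNAs, is a protein-coding gene, for a mitochondrial leucyl-tRNA synthetase, and was at 126 to 233 CPM untreated. With farnesol it was at 141 to 234 CPM in the low-rRNA and 517 to 921 CPM in the high-rRNA libraries. Its level was thus high and low in the same farnesol libraries as CT010467.1, and what its reads come from was not tested. Naive libraries held 361 to 479 CPM of Lars2, 864 to 1069 CPM of Malat1 and 20.7 to 25.9 CPM of Kcnq1ot1. mt-Atp6 (0.81) and mt-Co2 (0.57) were the 2 called of 13 mitochondrially encoded transcripts; each has near-identical nuclear copies and a level far below that of other mitochondrial transcripts, so their values are uncertain.

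**Figure D2:**
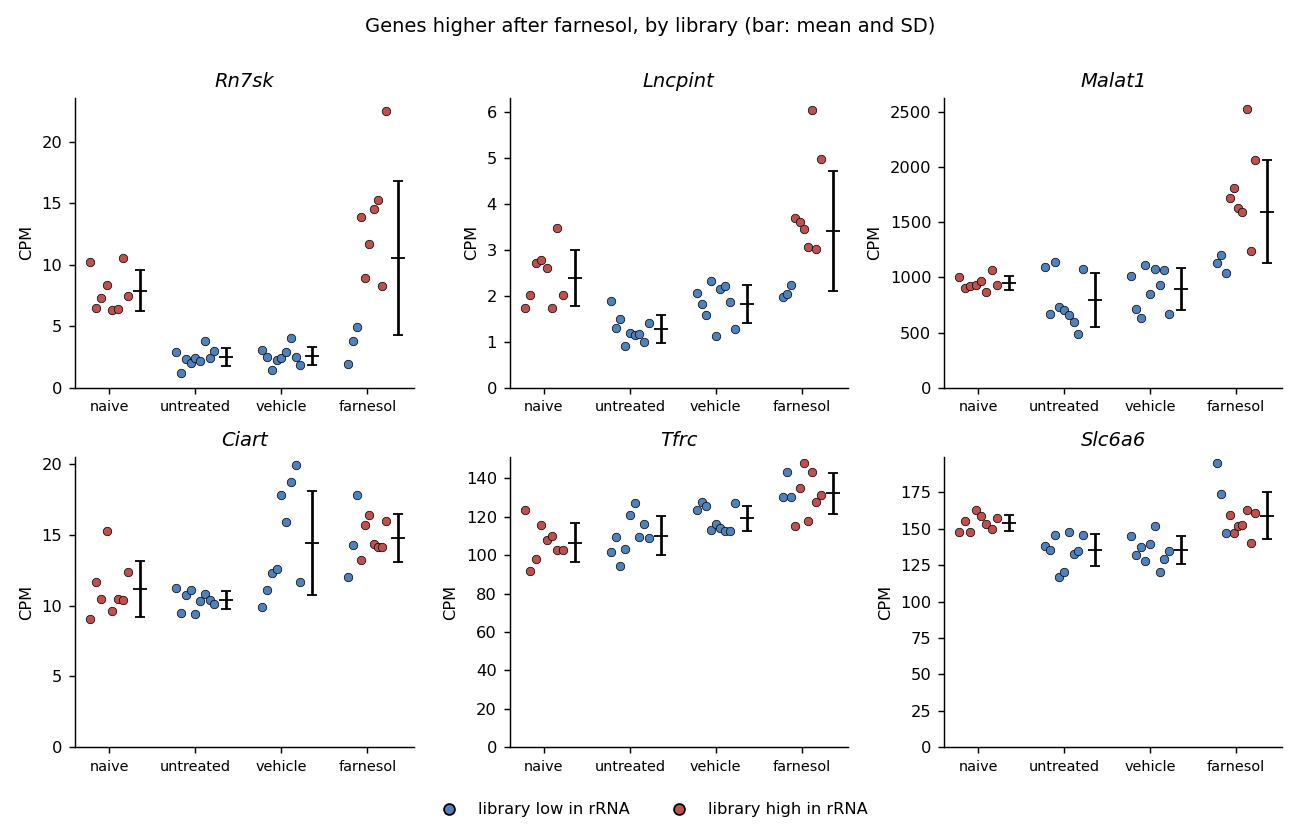
Levels in CPM of 6 genes higher with farnesol, by library, drawn as for the lower genes. Rn7sk in the 3 low-rRNA farnesol libraries lies at 1.9 to 4.94 CPM and in the 7 high-rRNA ones at 8.27 to 22.5 CPM, while for Ciart the sets lie at 12 to 17.8 and 13.2 to 16.4 CPM.

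Protein-coding rises were small: the 63 genes had a median change of 0.34, and 6 were over 2-fold. The transferrin receptor Tfrc (chr16:32608920-32632794) was at 94.3 to 127 CPM untreated and at 115 to 148 CPM with farnesol, a change of 0.26 ± 0.05 (adjusted p = 0.00438). The organic anion transporter Slco1a4 of the blood-brain barrier (chr6:141805440-141856199) changed by 0.39 ± 0.08 (adjusted p = 0.00396) and was at 36.8 to 55.9 CPM against 47.3 to 69.7 CPM. The taurine transporter Slc6a6 (chr6:91684053-91759066) changed by 0.23 ± 0.05 (adjusted p = 0.00759) and was at 117 to 148 CPM against 140 to 195 CPM. Mecom, a zinc finger factor (chr3:29951296-30548008), rose by 0.57 with ranges of 2.56 to 4.06 and 4.28 to 5.53 CPM that did not overlap. The cold-induced RNA-binding protein Cirbp rose by 0.36 and the phospholipase gene Pla2g4e by 0.58. Lanosterol synthase, Lss, was the only called gene of 27 in mevalonate and sterol synthesis and rose by 0.24; untreated libraries were at 27.9 to 36 CPM and farnesol libraries at 28.8 to 42.2 CPM. The median of that list was -0.013, and 1.87% of all genes were called. None of 18 genes of farnesyl and geranylgeranyl handling passed (median -0.0038), and in PPAR targets and fatty acid oxidation 1 of 27, Fabp7, was lower. Fdps was at 0.916 ± 0.352 CPM (SD, n = 9) and 1.33 ± 0.663 CPM (SD, n = 10), with an adjusted p of 0.339.

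**Figure D3:**
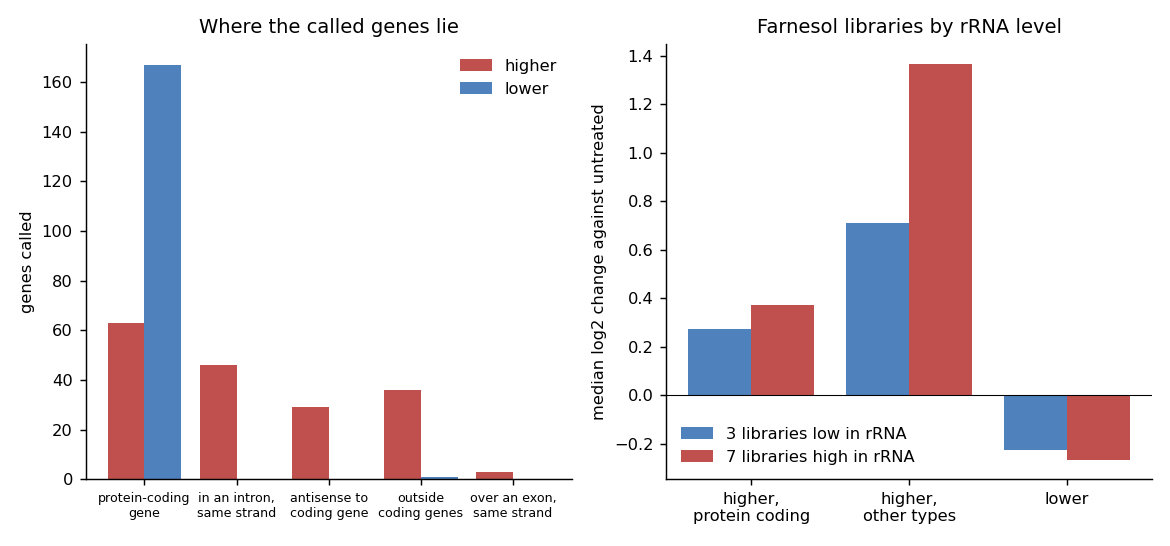
Left, the number of genes called higher or lower by where they lie in the annotation: 46 intronic noncoding genes rose and 0 fell, while 167 protein-coding genes fell and 63 rose. Faint loci can pass the count filter through the libraries where they are high. Right, the median log2 change of the called genes in the low-rRNA and the high-rRNA farnesol libraries against untreated: 0.71 and 1.37 for the higher noncoding genes, -0.22 and -0.26 for the lower genes. These genes were called with the same libraries.

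The called genes were followed in both sets of farnesol libraries, each against the untreated libraries that they share. These genes were called with the same libraries, so their direction, size and recurrence in the sets are not independent results. Noncoding rises had a median of 0.71 in the low-rRNA and 1.37 in the high-rRNA libraries, and coding rises had 0.27 and 0.37. The lower genes had -0.22 and -0.26. With the 3 low-rRNA libraries 36 genes passed (0.195%), 21 of them among the 345, and with the 7 high-rRNA libraries 468 passed (2.54%), 270 of them among the 345. Those named here in the low-rRNA set were Plat, Tmem50b, Per3, Slco1a4, Slc6a6, mt-Atp6, Gm28439 and Rpl3-ps1. No ER, heat shock or immediate early gene passed in that set, where the lists' medians were -0.15, -0.12 and -0.34. In the high-rRNA set 12 ER, 10 heat shock and 15 immediate early genes fell, with medians of -0.17, -0.15 and -0.47. Between the farnesol sets directly, 10 of the 177 higher genes were higher in the high-rRNA libraries, against 38 of all genes (0.206%), and 2 of the 168 lower genes were lower there, against 35 of all genes (0.19%). When the fit held a term for high or low rRNA, 1 immediate early gene and no ER or heat shock gene passed. Only the farnesol group holds both sets, so this fit again compares the 3 low-rRNA farnesol libraries with the untreated ones. Removing the untreated libraries with Sbp left 7 ER, 2 heat shock and 15 immediate early genes lower. Whether the composition of the libraries has a part in these results was not tested.

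Inflammatory, glial and neuronal programmes showed no called genes in most lists. No gene passed among 14 neutrophil, 19 monocyte and macrophage, 15 T cell, 8 B cell, 10 MHC class II, 32 interferon-response, 14 chemokine and 15 complement genes, among 22 reactive astrocyte, 14 homeostatic microglia and 20 activated microglia genes, or among 22 myelin genes. The median of MHC class II genes was -0.24, but it was 0.45 in the low-rRNA and -0.75 in the high-rRNA libraries. Interferon-response genes had -0.10 in all and 0.47 and -0.46 in the respective sets. Cd74, which chaperones MHC class II molecules, was at 202 ± 146 CPM (SD, n = 9) untreated and 138 ± 161 CPM (SD, n = 10) with farnesol, so that the spread exceeded the difference (adjusted p = 0.729). Gfap was at 632 ± 231 and 491 ± 234 CPM (adjusted p = 0.578), with 357 to 521 CPM in the 5 untreated libraries with Sbp and 715 to 969 CPM in the other 4. Aif1, a marker of microglia and macrophages, was at 9.43 ± 4.57 and 8.66 ± 4.17 CPM (adjusted p = 0.903), and Lcn2, a marker of reactive astrocytes, at 46.6 ± 16.9 and 44.2 ± 12.5 CPM (adjusted p = 0.919). Myelin basic protein, Mbp, was at 3057 ± 495 and 3097 ± 366 CPM (adjusted p = 0.952). Neurod2 was the only called gene of 23 in the excitatory neuron and synaptic vesicle list and fell by 0.26, Col4a1 the only one of 20 in the collagen list (-0.24), and Atp13a5 the only one of 14 pericyte genes (0.30). Of 20 hypoxia and glycolysis genes 3 fell, P4ha1, Pfkfb3 and Pfkp, by 0.32, 0.25 and 0.15. Pfkp was at 0.034 with the low-rRNA farnesol against the untreated libraries without Sbp. Over all genes 1.87% were called and 0.911% fell.

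**Figure D4:**
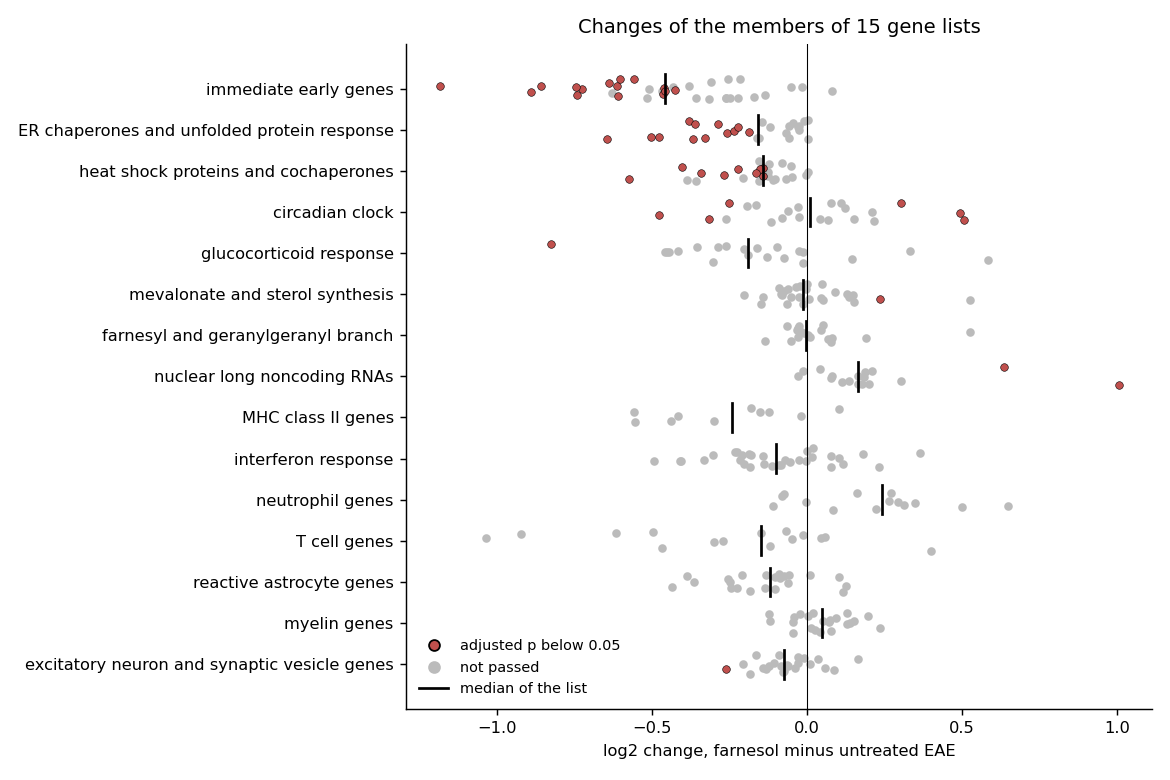
Log2 change of each tested member of 15 gene lists, farnesol minus untreated, with members of adjusted p below 0.05 in red and the list's median as a bar. Immediate early genes (median -0.46), ER chaperones (-0.16) and heat shock genes (-0.14) hold most of the called members, while MHC class II, interferon, neutrophil, T cell and myelin genes hold none.

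The vehicle libraries were set beside both groups. Vehicle against untreated gave 4 called genes, all lower (0.0217%): Fmnl1, Kcnip3, Synj2 and Ier5. Of 18438 genes tested, unadjusted p below 0.05 was reached by 1522 in that comparison and by 2659 in farnesol against untreated. Many genes would reach this threshold without any difference between groups. Farnesol against vehicle gave 17 called genes (0.0922%), 15 higher and 2 lower. The 2 lower were Plat (-0.24, adjusted p = 0.0477) and Nfil3 (-0.45, adjusted p = 0.0289), and the coding rises included Slc6a6 (0.23, adjusted p = 0.0467). Other rises there included CT010467.1 (2.21), Rn7sk (2.05), the coding gene Lars2 (1.58) and Malat1 (0.84), and the vehicle libraries are all low in rRNA. Over the 168 lower genes the median was -0.27 for farnesol against untreated, -0.17 for vehicle against untreated and -0.08 for farnesol against vehicle. These comparisons share samples. The genes were called with the same farnesol and untreated libraries, so that choice shapes all these medians. They do not divide the fall between gavage and farnesol. Hspa5 was at 295 CPM on average with vehicle and 267 CPM with farnesol, a difference of -0.15 (adjusted p = 0.908). For Arc the means were 140 and 108 CPM (-0.38, adjusted p = 0.926), and for Dnajb1 51.2 and 48.4 CPM (-0.08, adjusted p = 0.981). The vehicle libraries ranged from 248 to 359 CPM for Hspa5, from 56.1 to 238 CPM for Arc and from 44.8 to 56.2 CPM for Dnajb1. With such spread a large adjusted p does not show that vehicle and farnesol are alike. Naive libraries held 247 to 292 CPM of Hspa5, 132 to 221 CPM of Arc and 47.1 to 63.9 CPM of Dnajb1. The 177 higher genes, called with the same libraries, had medians of 0.88, 0.29 and 0.48 in the same order of comparisons.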

How the data were processed

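The libraries are whole-brain total RNA of 36 mice prepared, per the labels' protocols, with NEBNext Ultra reagents, and groups follow the labels' treatment. The deposited values are raw counts, 1 column per library, for 54532 gene identifiers. Reads were mapped with STAR 2.5 to mm10 per the submitters' processing notes; the extract protocol in the labels also names Kallisto, and which counter, annotation release and strand setting were used is not given in the sources used here. Gene symbols, types and coordinates came from GENCODE M21 (54409 identifiers, 99.94% of counts), and promoters from RefSeq on GRCm38.p6. Total counts were 14.7 to 24.2 M per library.

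Genes were kept with filterByExpr (minimum count 10, minimum total 15), and 18438 were tested in edgeR 4.0.16 (R 4.3.3) with TMM scaling and the quasi-likelihood test, 1 mean per group in a fit of all 36 libraries. P-values were adjusted by Benjamini-Hochberg over all genes tested, at 0.05. The SE was obtained from the log2 change and its F statistic, as their ratio after taking the root of F; CPM are scaled by the TMM factors. Library composition was compared by two-sided exact permutation, whose smallest p here is 1.083e-05. Library sets were divided where CT010467.1 had no value, from 2783.7 to 5090.6 CPM. The test was tested on simulated data with known changes.

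Named genes with a symbol other than a clone name and at least 1 CPM in either group were the 12 largest rises and falls and the 8 of smallest p in each direction. To these came, in each list described, up to 4 genes of smallest p and 2 of highest CPM, and further genes (Gfap, Cd74, Aif1, Mbp, Lcn2 and Fdps among them); some genes that the rule or the counts include are not reported here. Genes outside the rule were chosen after their values were seen, among them Per3, Arntl, Hsp90b1, Xbp1, Pdia4, Hspa1b, Mecom, Slc6a6 and the ERK-pathway genes. The members, the 60 gene lists and the rule were chosen with earlier results of these data known, and 40 lists meet the rule for description. Alternatives were RLE and upper-quartile scaling, DESeq2 1.42.0, limma-voom 3.58.1 with sample weights, other count filters, the 19 libraries alone, a replicate block, the library sets, libraries left out, and 1 surrogate variable (sva 3.50.0). No pair of replicates agreed within sampling noise (chi-square per degree of freedom of 5.395 or more).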

Additional observations from a re-analysis of the deposited data

Results flagged for a closer look

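Of 188 group values tested for a single library far from the rest of its group, 15 were marked; chance marks about 1 in 20 such groups. Each is given in CPM with the nearest other library of the group. Farnesol replicate 9 was the highest for mt-Atp6 (65.66, nearest 42.7), mt-Co2 (73.18, nearest 41.71) and Gm28439 (41.65, nearest 25.91). Farnesol replicate 2, a library poor in cerebellar genes, was the highest for Dnajb5 (145.6, nearest 110.9) and Pfkp (361.8, nearest 312.1) and the lowest for Tmem50b (93.49, nearest 100.2). Farnesol replicate 1 was the lowest for Lss (28.84, nearest 35.73). Among untreated libraries, replicate 1 was the lowest for Manf (44.05, nearest 49.64). Untreated replicate 2 was the highest for Dnajb5 (182.7, nearest 150.7) and Hspa1b (17.55, nearest 12.51). Replicate 3 was the highest for Gm22009 (1.932, nearest 1.089), replicate 8 for mt-Co2 (41.47, nearest 31.35) and replicate 9 for Banp (40.5, nearest 33.99). In total counts untreated replicate 1 had 14.71 M (nearest 20.13 M), and in mitochondrial share untreated replicate 7 had 5.623% (nearest 4.66%).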

How the results depend on the processing

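The 345 calls (177 higher, 168 lower) became 521 with DESeq2 (273 lower), 229 with a minimum count of 50 (105 higher), 156 in a fit of the 19 libraries alone (71 higher, 85 lower), 558 with 1 surrogate variable (341 lower) and 566 without libraries poor in cerebellar genes (303 lower). They became 36 with the low-rRNA farnesol libraries only (21 higher, 15 lower), 56 with the library set as a term (28 and 28) and 174 without the untreated libraries with Sbp (80 higher, 94 lower). Low-rRNA farnesol against untreated libraries without Sbp, added after seeing the data, gave 28 (14 and 14). Upper-quartile scaling gave 219 higher and 128 lower. With the replicate number as a block, 50 genes passed (10 higher, 40 lower), but same-numbered libraries did not pair: over 9 pairs the correlation of deviations was -0.202 to 0.381, 2 were over 0.1 and 2 libraries correlated best with their own number. Leaving out 1 library gave 202 (without untreated replicate 8) to 501 calls (without farnesol replicate 7), 101 to 231 higher and 101 to 275 lower; untreated replicate 2 and farnesol replicate 8 also moved the count by over 1.5 times, to 218 and 219, and farnesol replicate 10 the higher count, to 117. The higher count was lowest without untreated replicate 8 and highest without untreated replicate 3. Direction turned for Tcp11l1 (-0.107 with low-rRNA libraries, -0.1094 with the set term, -0.0301 in the added fit), Gm22009 (-0.083 and -0.0876 in the first 2), Muc6 (-0.0895) and Pfkp (0.034) in the added fit; the cause was not tested. Of 92 called named genes, 92 kept their call under RLE scaling and DESeq2, 69 in the 19 libraries alone, 39 with the block, 45 without Sbp libraries and 8 with low-rRNA libraries only. The block and the low-rRNA fit use fewer libraries. Only the farnesol group holds both library sets, so the fit with the set term also rests on its low-rRNA libraries. The difference in total counts (-1.73 M) was -3.2791 M without the Sbp libraries (exact p = 0.02597) and ranged from -2.4561 to -1.268 when 1 library was left out (exact p under 0.05 without farnesol replicate 1 or untreated replicate 1); that in mitochondrial share (0.188 points) was -0.10281 without them and 0.11637 to 0.33712, the last without untreated replicate 7. Small changes are the ones that this depth and spread limit most.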
